A study of Mus musculus with 12 samples.

Results

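The neurotrophin genes examined here are 3 ligand genes, Ntf3, Ntf5 and Bdnf, and 5 receptor genes, Ngfr, Ntrk2, Ntrk3, Sorcs2 and Sorl1. All CpG sites that the authors called as differentially methylated and that lay in the RefSeq span of one of these 8 genes, or within 50 kb on either side, were taken. This gave 13 of the 2798 called sites. The choice used gene positions and no methylation value. The genes themselves were picked with earlier results of these data in view, so counts over them are a description.

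The assay was reduced representation bisulfite sequencing (RRBS), which enriches CpG-rich restriction fragments and reads unmethylated cytosines as thymine after bisulfite treatment. The DNA was labelled as that of splenic CD11c dendritic cells from female C57BL/6 mice of the F1 generation, and the extraction note also names spleen. In the maternal DEHP group (6 libraries) the F0 mothers had received di(2-ethylhexyl) phthalate, a plasticiser, in a daily dose of 37 µg per kg over 10 days. In the maternal corn oil group (6 libraries) they had received the vehicle over the same time. The mothers were C57BL/6 mice obtained at 6 to 8 weeks of age and were mated with untreated males. All 12 libraries carry the immunization label OVA, so the controls share it. The sources used here give neither the age of the F1 mice nor the number of mothers, litters or animals behind the libraries.

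Neurotrophins are secreted growth factors that are made as longer precursors and cut to a mature form. Each mature ligand prefers a Trk receptor tyrosine kinase: BDNF and neurotrophin-4 (Ntf5) bind TrkB (Ntrk2), and neurotrophin-3 (Ntf3) binds TrkC (Ntrk3). The p75 receptor (Ngfr) binds each of these ligands, and it binds the uncut precursors together with some receptors of the sortilin family, Sorcs2 among them. Sorl1 belongs to the same family of sorting receptors. The neurotrophin family is best known for neuron survival and synaptic function, and members are also made by immune cells. The series title puts NTF3 forward as a marker for allergic disease.

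The values are those of the authors' deposited table, a comparison of the groups as wholes. For each called site it gives a difference in percentage points, a p-value and a q-value, and no level, read count or coverage for any library. No spread between libraries can therefore be set beside a difference, the depth is unknown, and the labelled cell type could not be checked against marker genes. A difference in cell composition between the groups was not tested, and the q-values cannot be set against variation between mothers. Every site of the table differed by at least 25 points, and the table does not state which group was subtracted. Positive values form the hypermethylated part of the deposit, and they are taken here to mean more methylation after maternal DEHP, with negative values meaning less. Over the whole table, 1354 sites were higher and 1444 lower (51.6% lower), with a median absolute difference of 28.7 points.

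Ntf3 is the gene in the series title, and the authors' deposited table holds no site in its span. Of all protein-coding genes, 4.96% had one there. RefSeq (GRCm38.p6) gives 2 start windows of Ntf3, each reaching from 250 bases before to 50 bases after a transcription start. They are shown as the stretches next to the starts of the gene, with each CpG in capitals. Each covers 300 bases, so a window without a called site does not show that the wider promoter had none. Both are on the minus strand and are written 5′ to 3′ along the gene. The third window is the start of Bdnf nearest to a called site, on the plus strand.
Ntf3 upstream start, chr6:126166695-126166994: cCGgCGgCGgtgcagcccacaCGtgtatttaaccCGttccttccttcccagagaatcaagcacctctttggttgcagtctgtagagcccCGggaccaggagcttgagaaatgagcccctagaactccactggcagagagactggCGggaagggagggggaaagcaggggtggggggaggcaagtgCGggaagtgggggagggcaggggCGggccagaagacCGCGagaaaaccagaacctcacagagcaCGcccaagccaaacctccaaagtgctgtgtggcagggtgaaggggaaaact
Ntf3 downstream start, chr6:126164911-126165210: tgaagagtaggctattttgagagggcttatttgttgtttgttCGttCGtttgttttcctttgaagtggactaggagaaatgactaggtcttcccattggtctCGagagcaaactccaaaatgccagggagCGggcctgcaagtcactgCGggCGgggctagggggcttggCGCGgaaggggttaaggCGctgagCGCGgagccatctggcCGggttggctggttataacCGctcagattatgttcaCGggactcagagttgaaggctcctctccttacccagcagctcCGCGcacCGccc
Bdnf start nearest to the called sites, chr2:109676782-109677081: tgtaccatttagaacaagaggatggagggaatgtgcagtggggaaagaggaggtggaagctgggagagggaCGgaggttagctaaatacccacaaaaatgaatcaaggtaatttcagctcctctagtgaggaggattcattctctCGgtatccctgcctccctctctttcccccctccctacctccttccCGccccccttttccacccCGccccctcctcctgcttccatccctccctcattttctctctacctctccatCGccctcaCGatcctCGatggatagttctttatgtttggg

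The upstream Ntf3 window held 12 CpGs and the downstream window 17, against a median of 7 over the 32817 distinct start windows of the RefSeq table. CCGG, the sequence cut by MspI, the enzyme commonly used for RRBS, was searched as written, which reads the same on both strands and contains a CpG. It occurred 2 times in the upstream window, 1 time in the downstream window and at least once in 52.8% of all windows. The sources used here do not name the enzyme of this study. No CpG of either Ntf3 window was called. Start windows with a called site were rare throughout: 55 of 32817 (0.168%) held one in the authors' deposited table, and of windows with at least 12 CpGs 38 of 12984 (0.293%) did. Which CpGs of Ntf3 were covered is unknown, so the lack of a called site is no measure of unchanged methylation. The positions themselves could be checked in these windows: of the 74 called sites that fell in any start window, 74 lay on the C of a CpG in the RefSeq sequence.

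The span of Ntf3 (gene 18205) covers chr6:126101412-126166772. The authors' deposited table places 1 called site within 50 kb, at position 126196296, with a difference of -29.3 points and a q-value of 0. It lay 29.5 kb beyond the span on the side of the gene's start, which is 29.6 kb upstream of the first Ntf3 start and 31.3 kb upstream of the second. No annotated gene holds it. Ntf3 was its nearest gene of any kind, and the next coding gene, Ano2, a chloride channel gene, lay 156163 bp away. It stood alone: the nearest other called site was 852438 bp from it. Its size was near the middle of the list, with 45.2% of all called sites at least as large. Among protein-coding genes, 86.8% had their nearest called site farther away than Ntf3 did, and 86.6% of those of 20 to 100 kb.

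Bdnf (gene 12064), the ligand of TrkB and the most widely studied neurotrophin in brain, spans chr2:109674700-109727043 and has several alternative starts, 7 of them in the RefSeq table. The authors' deposited table holds 2 sites inside it, and they differ in direction. The site at 109677375 was higher by 30.6 points in the maternal DEHP group and the site at 109677413 was at -33.2 points, both with a q-value of 0. The pair is 38 bp apart. It lies 343 and 381 bp downstream of the second start, whose window is printed above, and 15061 and 15023 bp upstream of the third. That window has 7 CpGs and no CCGG, and none of its CpGs was called.

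Opposite directions at so short a distance were a minority in the table as a whole. Of 258 neighbouring called sites at most 50 bp apart, 29 (11.2%) had opposite directions. Called sites merged over gaps of up to 1 kb gave 282 loci of exactly 2 sites, and in 153 of these (54.3%) the directions were opposite. Loci of 2 sites with opposite directions were thus frequent, and spacings as short as that in Bdnf were mostly held by sites of like direction. The 258 pairs include neighbours within longer runs, and loci of 2 sites at such spacings were not counted apart. The mean difference of the Bdnf pair was -1.30 points.

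Ntf5 (gene 78405), which encodes neurotrophin-4 (also called neurotrophin-5), is a short gene of 3.48 kb at chr7:45413695-45417179. In the authors' deposited table a single site lay within 50 kb, at 45409596, 4099 bp before the lower end of the span, at -25.1 points with a q-value of 0. That position is inside the span of the neighbouring potassium channel gene Kcna7, 3636 bp downstream of the Kcna7 start. It was among the smallest differences listed, with 97.7% of all called sites at least as large. The next site, at 45318067, lay 95.6 kb from Ntf5 within the ion channel gene Trpm4 and was at -32.5 points in the authors' deposited table. It is the nearest site beyond the 50 kb limit for any of the 8 genes, while the farthest within the limit is 35262 bp from Ngfr.

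Ngfr (gene 18053) encodes the p75 receptor, which belongs to the tumour necrosis factor receptor superfamily, and spans chr11:95568818-95587698 on the minus strand. The authors' deposited table has no site in its span or in its start window, which holds 23 CpGs. It has a run of 4 sites in 52 bp beyond the far end of the gene, 35.2 kb from the span and 54.1 kb downstream of the Ngfr start. Their differences were -26.99 points at 95533556, -31.7 at 95533579, -42.2 at 95533598 and -42.5 at 95533608. All were lower in the maternal DEHP group, and 3 had a q-value of 0 while the second had 1.63e-14 in the authors' deposited table.

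With a mean of -35.8 points, the run near Ngfr had rank 4 by mean size among the 15 loci of the table that had at least 4 sites and a single direction. Of these 15, 10 were lower in the maternal DEHP group. The final pair of sites were the largest differences at any of the 8 genes, and 3.50% and 3.43% of all called sites were at least as large. No annotated gene holds the run. Nxph3, which encodes the secreted neurexin ligand neurexophilin 3, was nearer to it (18991 bp) than Ngfr was, so the run belongs to Ngfr by the 50 kb window and to Nxph3 by distance.

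**Figure D1:**
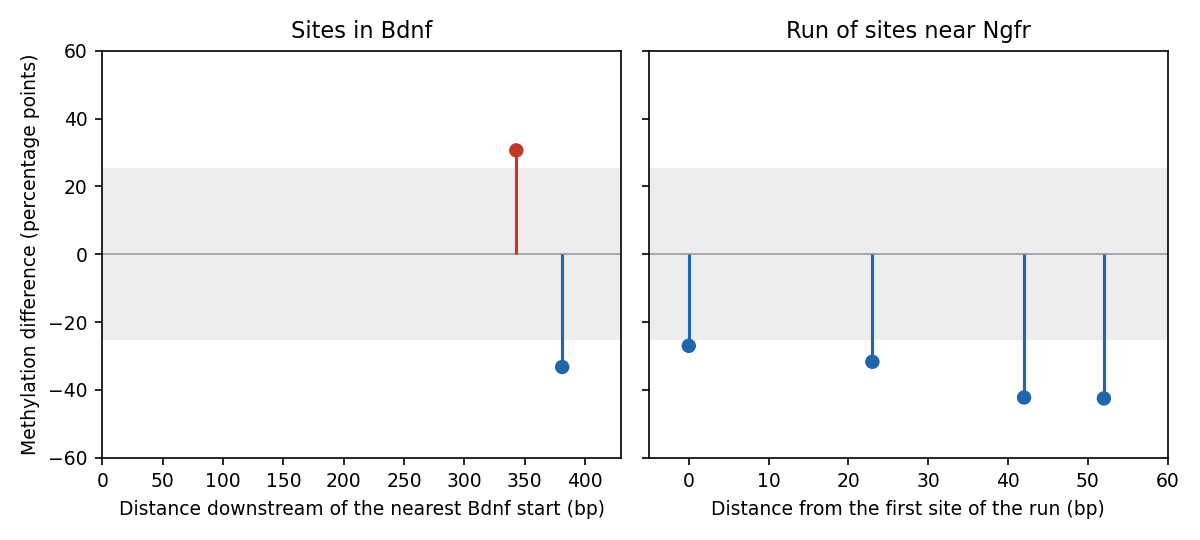
Methylation difference in percentage points at neighbouring called sites, by distance in bp from the second Bdnf start (left) and from the first site of the run near Ngfr (right). Each stem is 1 called site, red for positive and blue for negative differences, and the grey band marks sizes the table leaves out. The Bdnf pair points both ways at 343 and 381 bp, while the 4 sites near Ngfr are all negative.

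Ntrk2 (gene 18212), the TrkB gene, spans chr13:58806472-59133970. The authors' deposited table has 1 site in it, at 58954017, with -27.3 points and a q-value of 0. The site lies 147448 bp downstream of the start in the RefSeq table, 45.1% of the way along the span, and the nearest other called site is 376225 bp away. The Ntrk2 start window holds 23 CpGs, and none was called.

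Ntrk3 (gene 18213), the TrkC gene and so the receptor of neurotrophin-3, spans chr7:78179986-78581034. Among the 8 genes it was the one without a called site, although its span with both flanks covers 501 kb. In the authors' deposited table the site closest to it, at 78985409, lay 404 kb away and was higher by 27.03 points. Of the protein-coding genes with spans of 300 kb or more, 42.9% had their nearest called site still farther away. Of the ligand and receptor pair Ntf3 and Ntrk3, neither had a called site in its span. The same held for most protein-coding genes, of which 4.96% had one.

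Sorcs2 (gene 81840), a sortilin-family receptor that pairs with p75 for precursor neurotrophins, spans chr5:36017180-36398197. The authors' deposited table has 3 sites at this gene. The site at 36183061 was at -25.04 points and also lies in the long noncoding RNA gene Gm31945. The site at 36313721 was at -32.5 points, 130660 bp farther along. Both had a q-value of 0. The third, at 36398537, was higher by 26.8 points (q-value of 1.25e-09) and lay 340 bp outside the upper end of the span. The nearest sites of opposite direction at Sorcs2 are separated by 84816 bp, where those in Bdnf are 38 bp apart. Of the 13 sites, the one beside Sorcs2 was closest to a gene span without being inside it.

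Sorl1 (gene 20660), the sorting receptor SorLA, which moves cargo between the Golgi and endosomes, spans chr9:41964709-42124297 on the minus strand. In the authors' deposited table a single site lay in it, at 42033862, with -31.1 points and a q-value of 0. It lies 90.4 kb downstream of the first Sorl1 start and 43.4 kb downstream of the second, also within the long noncoding RNA gene Gm16214. The first Sorl1 start window is CpG-rich, with 37 CpGs, a number that 5.59% of all windows reach, and none was called.

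**Figure D2:**
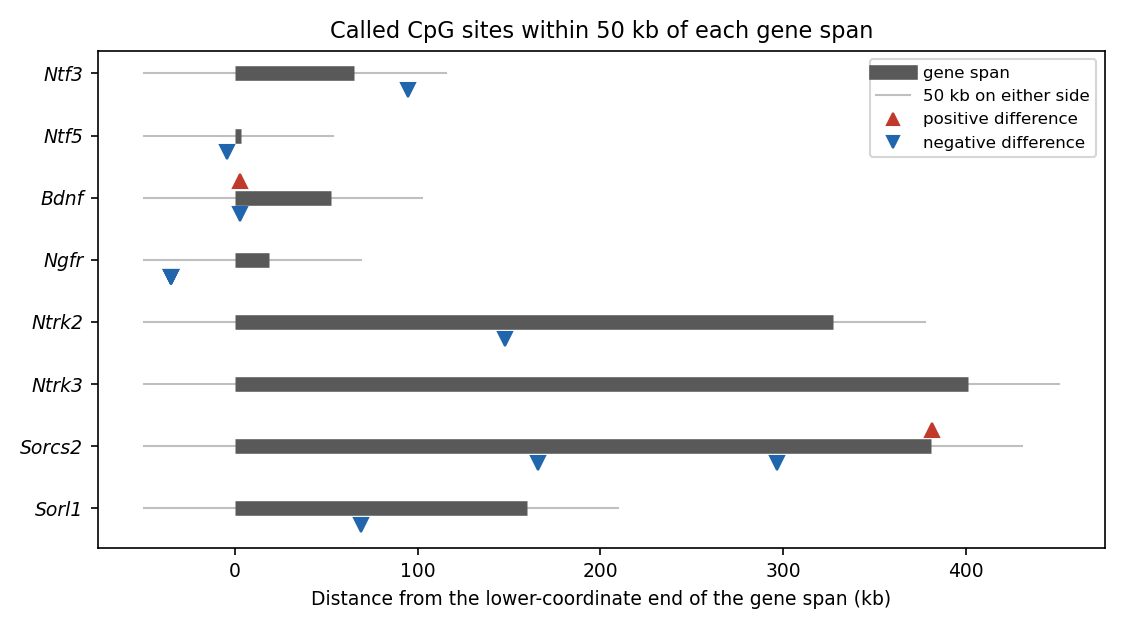
Called CpG sites along each gene, in kb from the lower-coordinate end of the span; thick bars are gene spans, thin lines the 50 kb on either side, red triangles (above) positive and blue triangles (below) negative differences. Sites lie inside 4 of the 8 spans, the 4 sites near Ngfr overlap at this scale, and Ntrk3 has none.

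Over the 8 genes, 11 of the 13 sites (84.6%) were lower in the maternal DEHP group, where 51.6% of all sites were. Counted as loci, 7 of 9 were lower, 1 was higher and 1, that in Bdnf, held both directions. The run near Ngfr supplies 4 of the lower sites, and without it 7 of 9 sites were lower. By gene, 7 of 8 had a lower site within 50 kb, where 10.3% of protein-coding genes did, and 2 of 8 had a higher site, where 10.2% did. Lower sites alone were seen at 5 genes (7.65% of protein-coding genes), and both directions at Bdnf and Sorcs2 (2.7%). The median absolute difference at the 13 sites was 30.6 points, against 28.7 for the whole table. Of the 13 sites, 6 differed by less than 30 points (46.2%, against 60.6% of all sites). Of the 13 sites, 2 differed by 40 points or more, both in the run near Ngfr, as did 152 of all 2798 sites (5.43%). The q-value was 0 at 11 of the 13 sites and at most 1.25e-09 at the others. Zeros were common throughout: the deposited p-value was 0 at 11 of the 13 sites and at 74.1% of all called sites.

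**Figure D3:**
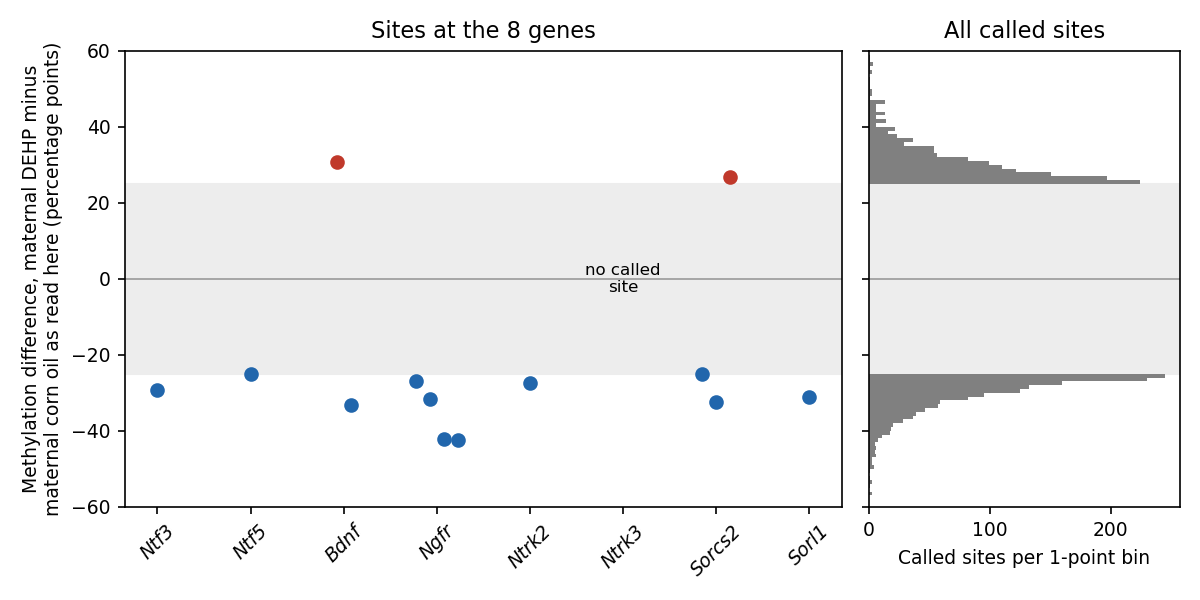
Methylation difference in percentage points at each of the 13 sites by gene (left; 1 point per site) and the number of all called sites per 1-point bin (right). The grey band marks differences under 25 points, which the table leaves out; 2 sites are positive and 11 negative, the negative ones from -25.04 to -42.5 points.

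No called site lay in a RefSeq start window of these genes. Such windows were found for 5 of the 8 genes (Ntf3, Bdnf, Ngfr, Ntrk2 and Sorl1). They numbered 13 with 184 CpGs in all, and 0 of the 13 held a called site, where 0.168% of all windows did. This does not mean that no site was close to a start. The Bdnf pair lay 343 and 381 bp downstream of a start, outside its window. Sorcs2 has no window, and its higher site lay 340 bp beyond the upper end of the span. Whether Sorcs2 starts at that end could not be checked, since its strand is not given. By gene span, 6 sites lay inside a span (Bdnf, Ntrk2, Sorcs2 and Sorl1) and 7 outside. For 5 sites, the one near Ntf5 and the 4 near Ngfr, another coding gene was nearer.

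Of the 8 genes, 7 had a called site in the span or within 50 kb, where 17.8% of all 21887 protein-coding genes did. Within the span alone the count was 4 of 8 against 4.96%, within 5 kb 5 of 8 against 6.52%, within 20 kb 5 of 8 against 10.7% and within 100 kb 7 of 8 against 27.6%. The share of protein-coding genes with none in the span was 94.2% at 20 to 100 kb and 87.6% at 100 to 300 kb. It was lower still at 300 kb or more. Of the 4 genes with a site in the span, Sorl1, Ntrk2 and Sorcs2 are longer than 100 kb, so 4.96% is a low background for these. Long genes had a called site within 50 kb more often, and a longer span also makes the window searched wider. Of the genes under 20 kb 16.8% had a site within 50 kb, and both Ntf5 and Ngfr did. At 20 to 100 kb the share was 17.7%, with both Ntf3 and Bdnf, and at 100 to 300 kb 21.3%, with Sorl1. At 300 kb or more it was 30%, with Ntrk2 and Sorcs2 but not Ntrk3. Their merged windows cover 2.21 Mb and hold 5.88 called sites per Mb (4.07 loci), against 1.28 sites (1.04 loci) per Mb in the windows of all protein-coding genes. Because the genes were picked with their called sites partly known, these counts carry no test, and the share of CpGs covered near them is unknown.

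**Figure D4:**
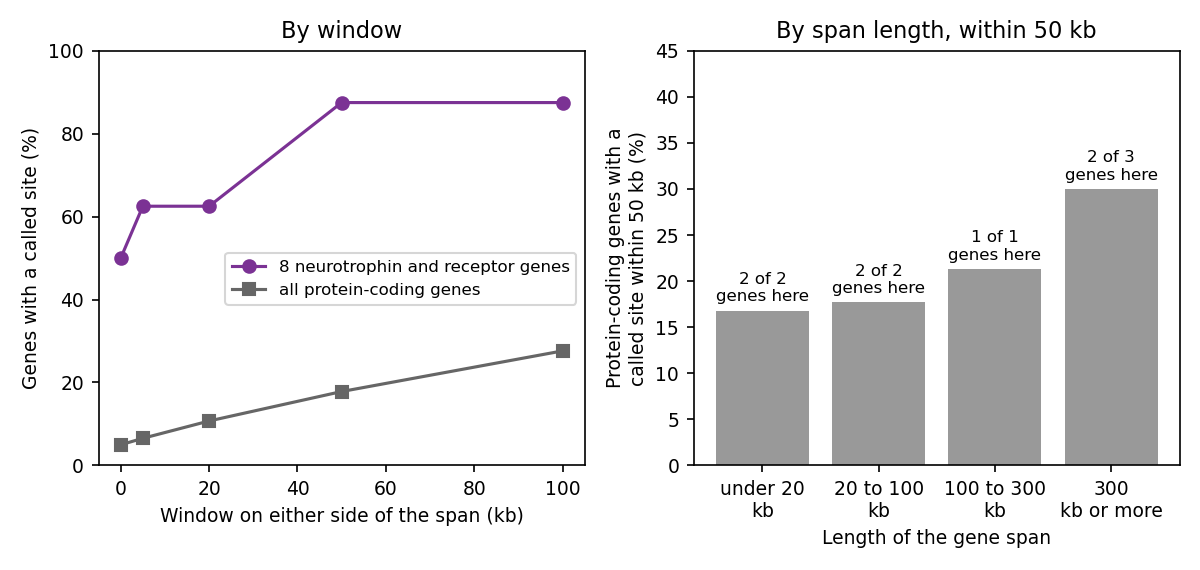
Left, percentage of genes with a called site by the window around the span in kb, for the 8 genes (circles) and all protein-coding genes (squares). Right, percentage of protein-coding genes with a called site within 50 kb by span length, with the count among the 8 genes above each bar; the share goes from 16.8% to 30% with length.

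The rest of the pathway was taken from a list of 42 further genes, all found in the RefSeq table. Of these, 9 (21.4%) had a called site within 50 kb, against 17.8% of protein-coding genes: 3 with higher sites alone, 4 with lower sites alone and 2 with both. In the span itself, 4 of the 42 had a site, against 4.96% of protein-coding genes. The 14 sites at these genes were 6 higher and 8 lower. Whether the balance of directions differed between this list and the 8 genes was not tested.

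Among 3 further receptor genes of the sortilin family, 1 had a site within 50 kb, against 17.8% of protein-coding genes. Sort1, which encodes sortilin, the co-receptor of p75 for precursors, had 3 sites within 50 kb. In the authors' deposited table they were at -25.8, -32.5 and -27.4 points. They lay 42.0, 35.7 and 35.8 kb from Sort1, and other coding genes were nearer to each. The last 2 were in the span of Celsr2. The first was 2003 bp from Gm12501 and 14932 bp from Psma5, its nearest coding gene. Sorcs1 and Sorcs3 had none.

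Among 15 Trk adaptors and effectors, 5 had a site within 50 kb (33.3%, against 17.8% of protein-coding genes), 3 of them in the span, where 4.96% of protein-coding genes had one. In the authors' deposited table, Grb2 and Frs3, adaptors that link receptor kinases to Ras, were higher by 30.1 and 28.7 points, and the adaptor gene Shc2 was at -32.8 points. Ptpn11, the phosphatase SHP2, had a site 14.3 kb away that was higher by 26.6 points. Near Gab1, a docking protein gene, sites 150 bp apart were at 25.4 and -29.1 points.

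Of 5 genes that neurotrophins induce, 1 had called sites within 50 kb (20%, near the 17.8% of protein-coding genes). This was Npas4, an activity-dependent transcription factor gene, with sites in its span, as 4.96% of protein-coding genes had. The authors' deposited table has 3 sites in it, at 46.9, 33.1 and -32.7 points, and 1.18% of all called sites were as large as the first. Among 8 genes for cleavage of the precursors, 1 had a site (12.5%, against 17.8% of protein-coding genes). It was Mmp9, with a site 49.5 kb away within Pcif1 (-31.5 points in the authors' deposited table). Among 11 partners of p75, 1 had a site (9.09%, against the same 17.8%). It was Nradd, with a site 39.5 kb away within Ccdc12 (-25.3 points in the same table).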

How the data were processed

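The deposited files hold the authors' own comparison of 6 maternal DEHP with 6 maternal corn oil libraries. Per the file headers, each row gives a position, a strand, a deposited p-value and q-value, and the difference in methylation in percentage points. The submitters' processing notes name methylKit and build GRCm38 (mm10). The sources used here do not name the aligner, coverage filter, statistical model or q-value method. No site was in both deposited parts or missing from them. The deposited p-value was 0 at 2073 sites (74.1%), and no q-value exceeded 3.62e-05.

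Sites were assigned to RefSeq spans (GRCm38.p6, 49943 genes on the main chromosomes) in Python 3.11.15 with pandas 2.3.3, and the assignment was tested on simulated data. The RefSeq gene table gives spans without exons, so exon, intron and UTR are not stated. Start sites and strand come from the RefSeq start windows, and Ntf5, Ntrk3 and Sorcs2 have none there. No test was run, since no value per library was used and the genes are few. The members and gene lists were chosen with earlier results of these data known. The rule for naming took all 8 genes with every site, the genes holding or nearest to each site, and each listed pathway gene with a site within 50 kb. Alternatives were other windows, larger minimum differences, a q-value limit, merged loci, assignment to 1 gene and other background gene sets. Some genes of the pathway are not reported here.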

Additional observations from a re-analysis of the deposited data

How the results depend on the processing

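The counts depend mainly on the window and the minimum difference. With the gene span alone, 4 genes and 6 sites were left and the largest difference was -33.2 points. At 5 kb, at 20 kb and with each site given to its nearest coding gene alone, the sites numbered 8 in each case, 6 of them lower in the maternal DEHP group. With a difference of at least 30 points, 4 genes and 7 sites were left, and at 40 points 1 gene and 2 sites. The share of protein-coding genes left at these minimum differences is not given here, so these gene counts have no background beside them. Over the whole table, 60.6% of sites were under 30 points and 5.43% were at 40 points or more. The nearest site to Ntf3 then lay 2431 and 4949 kb away, since the site at 29.5 kb was left out. A q-value under 0.001 removed none of the 13 sites and so tested nothing. Lower sites outnumbered higher ones in each of these settings. Each setting keeps all or part of the same 13 sites, of which 11 were lower. The outcome was thus largely fixed in advance and is no separate support for a direction. At 40 points both sites were in the run near Ngfr. Leaving out the run near Ngfr, chosen after seeing the data, left 6 genes. No paired analysis was possible because the result comes from no test and the table has no value per library. For the same reason no library could be left out, and read depth, which limits how small a difference could be called, is unknown.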
